A study of Saccharomyces cerevisiae with 279 samples.

Results

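The experiment described here is the depletion of eIF4E from Saccharomyces cerevisiae kept at 30°C. Its members were chosen by their labels: the Sed-seq libraries of the eIF4E degron strain at 30°C, which are 12 of the 279 libraries of the series. They come from 4 lysates, 2 mock-treated and 2 depleted, each sequenced as Total, Sup and Pellet. The strain, yHG038, is MATα ura3Δ0 his3Δ1 lys2Δ0, carries OsTIR1 under an estradiol-responsive Z4EV promoter at leu2, and has an AID* tag with 3xflag on eIF4E (CDC33-AID*-3xflag). Cells were grown in YPD and received 5 µM β-estradiol, or DMSO in the mock arm, for 75 min. Auxin followed for 2 h, as 100 µM IAA or 5 µM 5-Ph-IAA. The labels do not say which auxin this strain received, nor whether the mock arm received any, so effects of estradiol, auxin or TIR1 cannot be told apart from those of losing eIF4E. All 4 lysates carry the same tag, receptor and deletions, and the mock arm differs from the depleted one only in the drug treatment. The titles number the lysates of a group as BR1 and BR2, and by the study's methods replicates were biological and grown separately.

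eIF4E is the protein that binds the cap at the 5′ end of an mRNA. With the scaffold eIF4G and the helicase eIF4A it forms eIF4F, which prepares the mRNA for the small ribosomal subunit that eIF3 and other factors bring. In yeast, CDC33 is the single and essential eIF4E gene, and Caf20 and Eap1 bind eIF4E in competition with eIF4G. An auxin-inducible degron removes the protein and leaves the transcript, so the CDC33 mRNA level is no check that the depletion worked. Sed-seq spins each lysate (here at 20000 g for 10 min) and sequences the RNA before the spin and in both fractions. The fraction of each transcript that stays in the supernatant is called pSup. A lower pSup means that more of a transcript sediments. Long mRNAs sediment more than short ones, so part of the account uses the natural-log odds of pSup after subtracting the running mean over mRNAs of similar length in the same lysate, called here the length-centred value.

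The libraries fitted their strain label. The α-factor gene MF(ALPHA)1 stood at 1917 and 1840 TPM (a length-corrected share of a library's reads) in the mock lysates and at 2703 and 2884 in the depleted ones. No read of URA3 was counted in any Total library, and LYS2 lay at 0.0945 TPM or below. HIS3 transcripts, of which the his3Δ1 allele keeps a part, were at 45.4 and 46.7 TPM in mock and at 94.1 and 114.9 TPM after depletion. Estimated counts in Total ran from 5354343 to 7049900 a library, and nuclear mRNA took 94.3% and 93.9% in mock and 91.6% and 90.6% after depletion.

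Most mRNAs had a lower pSup when eIF4E was depleted. The median pSup over 4938 mRNAs was 0.765 and 0.786 in the mock lysates and 0.710 and 0.716 in the depleted lysates. Both depleted lysates thus lay below both mock lysates, and the mean went from 0.776 ± 0.0144 to 0.713 ± 0.00462 (SD, n = 2 lysates each). The difference of -0.0624 is larger than the spread within either group, but 2 lysates against 2 cannot give a two-sided exact permutation p below 0.33, which is the value found. Across single mRNAs, 3987 (80.7%) had a lower pSup in both depleted lysates than in either mock lysate, and 58 (1.17%) had a higher one. With the added NanoLuc RNA as the scale in place of the fitted mixing ratios, the lysate medians were 0.853 and 0.868 in mock and 0.791 and 0.783 after depletion, a difference of -0.0738.

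Short and long mRNAs both had lower pSup values after depletion. The 1240 mRNAs under 1000 nt had a median pSup of 0.862 and 0.867 in mock and 0.821 and 0.823 after depletion. For the 578 mRNAs of 3000 nt or more the medians were 0.590 and 0.628 in mock and 0.520 and 0.523 after depletion. In neither length class did the groups overlap. On the log-odds scale the median change in deciles of transcript length ran from -0.31 to -0.34, and the change correlated with length at Spearman's rho of -0.0234 across 4938 mRNAs, which share 4 lysates and are not independent. Lysates with the same replicate number, set against each other, gave median changes of -0.29 and -0.37. Their trends with length differed. Replicate 1 lysates went from -0.31 in the shortest decile to -0.27 in the longest, and replicate 2 lysates from -0.30 to -0.41. The flat profile is thus an average over lysates with unlike trends, and the replicate numbers were not taken to pair them. In the longest decile the mock medians of pSup (0.582 and 0.617) were further apart than the depleted ones (0.508 and 0.514).

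**Figure D1:**
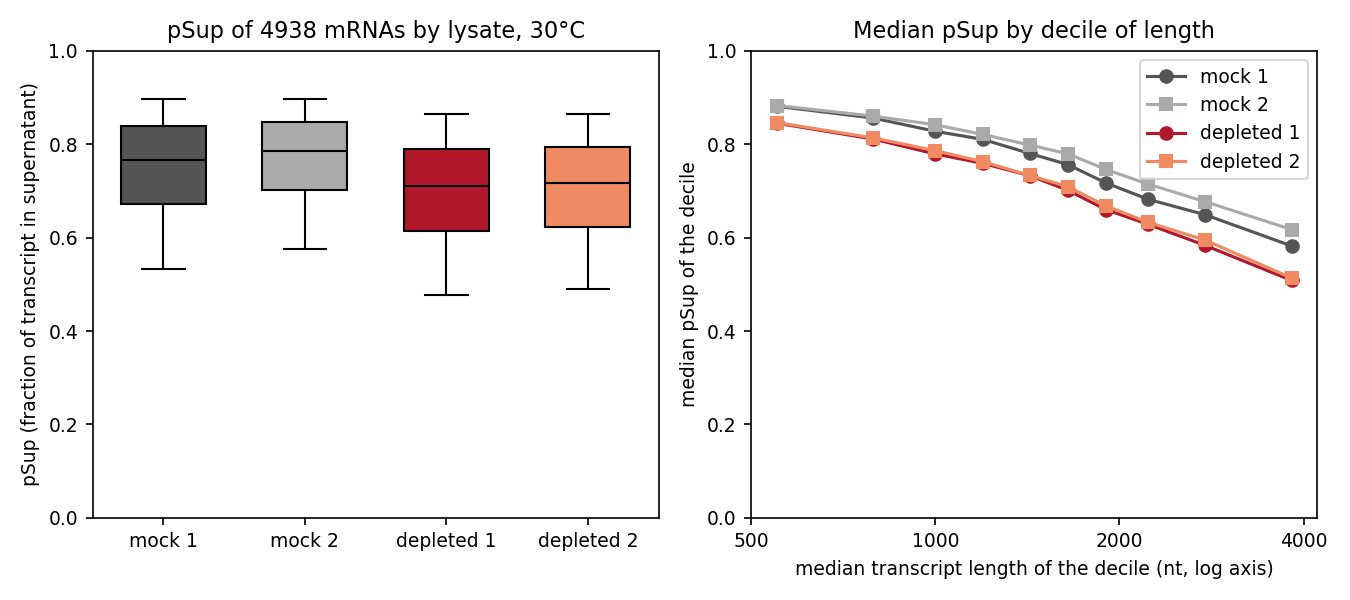
Left, pSup (fraction of a transcript in the supernatant) of 4938 mRNAs in each 30°C lysate, with boxes from the lower to the upper quartile, black median lines and whiskers from the 5th to the 95th percentile. Right, median pSup of the mRNAs in each decile of transcript length against the decile's median length in nt on a log axis, 1 line a lysate. The depleted medians (0.710 and 0.716) lie below the mock medians (0.765 and 0.786), and both depleted lines run below both mock lines in every decile.

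Tests of single mRNAs on the log-odds scale depended on which lysates gave the spread. In limma's fit, which takes its spread from all 12 eIF4E lysates at 30, 42 and 46°C, the median change in log-odds pSup was -0.33, and 0 mRNAs rose and 2 fell at a Benjamini-Hochberg adjusted p below 0.05 (0.0405% of those tested), while 605 had an unadjusted p below 0.05. Fitted on the 4 lysates at 30°C alone, 12 rose and 2748 fell (0.243% and 55.7%). The 2 mRNAs called in the wider fit lie outside the rule for named transcripts and are named after their values were seen. CTF8 rests on 24 to 30 counts over Sup and Pellet in a lysate. YRF1-6, of a subtelomeric family of near-identical copies, had pSup values of 0.344 and 0.464 in mock and 5.95e-05 and 0.916 after depletion, so its depleted lysates lay on either side of the mock ones.

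SSB1 and HAC1 differ in how many of their molecules carry ribosomes. Ribosome occupancy, the fraction of a transcript's molecules bound by ribosomes in unstressed BY4741 cells in the polysome libraries of the series, was 0.926 for SSB1 and 0.125 for HAC1, the lowest of the 4897 mRNAs with both values. SSB1 encodes a ribosome-associated Hsp70 chaperone, and HAC1 encodes the transcription factor of the unfolded protein response, whose unspliced mRNA is held back from translation by its intron. SSB1 (YDL229W, chromosome IV: 44065-45906 in R64) had a pSup of 0.839 and 0.840 in mock and of 0.711 and 0.693 after depletion. Both depleted values lay well below both mock values. Its log-odds change was -0.80 (SE 0.272, limma adjusted p = 0.399 with all temperatures in the fit and 0.00640 with the 30°C lysates alone). Relative to mRNAs of similar length SSB1 fell by 0.49 (SE 0.0769, limma adjusted p = 0.00929). Reads of SSB1 and its near-identical copy SSB2 were split by the authors' counting, so its level is less certain than that of a single-copy gene.

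HAC1 (YFL031W, chromosome VI: 75179-76147) showed no such drop. Its pSup was 0.669 and 0.659 in mock and 0.666 and 0.676 after depletion, and the groups overlapped. The log-odds change was 0.03 (SE 0.272, limma adjusted p = 0.929). On the NanoLuc scale it was -0.15 (SE 0.124, limma adjusted p = 0.247), beside a median of -0.51 for all mRNAs. Relative to mRNAs of similar length, which had lower values after depletion, HAC1 rose by 0.36 (SE 0.0660, limma adjusted p = 0.0147, or 0.119 from the 30°C lysates alone).

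PGK1 and BEM2 differ in length, at 1449 and 6675 nt. PGK1 encodes the glycolytic enzyme phosphoglycerate kinase. PGK1 had a pSup of 0.905 and 0.903 in mock and of 0.877 and 0.871 after depletion. BEM2 had 0.465 and 0.497 in mock and 0.399 in each depleted lysate. Depleted values were the lower ones for both, and neither passed the test relative to its length class, with centred changes of 0.02 for PGK1 (limma adjusted p = 0.919) and 0.14 for BEM2 (adjusted p = 0.239).

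Of the transcripts for eIF4F and its regulators, most had lower pSup values after depletion, as did most mRNAs. Both depleted values lay below both mock values in 80.7% of all mRNAs. CDC33 (YOL139C, chromosome XV: 60383-61024) had a pSup of 0.877 and 0.876 in mock and of 0.825 and 0.819 after depletion. TIF4631, which encodes the main eIF4G, had 0.685 and 0.709 in mock and 0.609 and 0.625 after depletion. Among the 10 eIF4F genes and regulators, EAP1 was the member whose groups overlapped, at 0.729 and 0.782 against 0.734 and 0.752. PAB1, which encodes the poly(A)-binding protein, was the member that fell relative to its length. It went from 0.788 and 0.794 to 0.667 and 0.672, with a centred change of -0.32 (SE 0.0498, limma adjusted p = 0.00904).

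**Figure D2:**
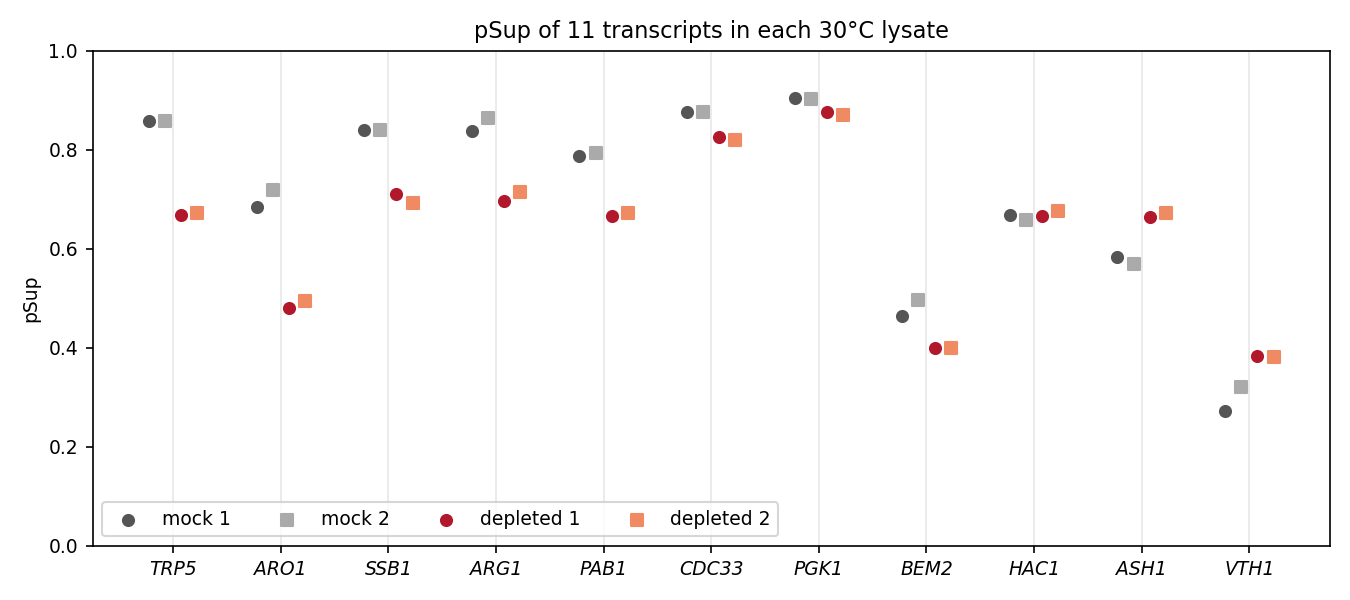
pSup (fraction in the supernatant) of 11 transcripts in each of the 4 lysates at 30°C, 1 point a lysate. TRP5, ARO1, SSB1, ARG1, PAB1, CDC33, PGK1 and BEM2 have both depleted points below both mock points, HAC1 overlaps (0.659 to 0.676), and ASH1 and VTH1 have both depleted points above.

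After centring on length, 120 mRNAs rose and 293 fell of 4938 tested (2.43% and 5.93%, or 8.36% together, limma with the spread of 12 lysates). These counts depend on each lysate. Without mock replicate 1 they were 14 and 47, without mock replicate 2 there were 31 rises and 142 calls in all, without depleted replicate 1 they were 5 and 38, and without depleted replicate 2 they were 9 and 33. With the 4 lysates at 30°C alone none passed, although 1196 had an unadjusted p below 0.05 and the smallest adjusted p was 0.0855. Centred changes of the same-numbered lysates correlated at rho = 0.497 across 4938 mRNAs, as a description.

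The falls included 18 of 43 amino acid biosynthesis transcripts, beside 5.93% of all mRNAs. TRP5 (YGL026C, chromosome VII: 446412-448535), which encodes tryptophan synthase, had a pSup of 0.857 in each mock lysate and of 0.669 and 0.673 after depletion. Its centred change of -0.74 (SE 0.0698, limma adjusted p = 0.0027) was the largest of the rule's 10 falls. ARO1 (chromosome IV: 704484-709250), which encodes the enzyme for most steps of the shikimate pathway, had 0.685 and 0.720 in mock and 0.481 and 0.495 after depletion, a centred change of -0.59 (adjusted p = 0.0023). Both depleted lysates were far below both mock lysates for either transcript, and 80.7% of all mRNAs also had both depleted values below both mock values.

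ARG1, which encodes argininosuccinate synthetase, had a pSup of 0.837 and 0.865 in mock and of 0.697 and 0.714 after depletion (centred change -0.55, limma adjusted p = 0.00325). Of the 43 amino acid biosynthesis transcripts listed, 0 rose and 18 fell after centring, and their median centred change was -0.18, beside 5.93% of all mRNAs that fell. LEU4, ILV6, TRP2, ILV1 and HOM3, which act in leucine, branched-chain, tryptophan, isoleucine and threonine synthesis, had centred changes of -0.39 to -0.42.

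The other large falls came from varied functions. CNB1, the regulatory subunit of calcineurin, had a pSup of 0.921 and 0.893 in mock and of 0.772 and 0.781 after depletion (centred change -0.69). BUD23, a methyltransferase of ribosomal RNA, had 0.850 and 0.849 in mock and 0.691 and 0.698 after depletion (centred change -0.60). YHM2, a mitochondrial carrier, had 0.875 and 0.861 in mock and 0.737 and 0.724 after depletion (centred change -0.58). In all 3 the depleted lysates were the low ones, without overlap, as in 80.7% of all mRNAs. The rule had picked these 3 for the size of their falls. GAP1, HBS1, PRS2 and BUD14 completed the rule's 10 falls with centred changes of -0.64, -0.51, -0.51 and -0.51. GAP1 encodes the general amino acid permease, HBS1 a GTPase of ribosome rescue and PRS2 a phosphoribosylpyrophosphate synthetase.

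The rule's 10 rises relative to length were transcripts at 5.16 to 94.7 TPM. ASH1, whose mRNA is carried to the bud tip under translational repression, had a pSup of 0.584 and 0.568 in mock and of 0.664 and 0.671 after depletion. It was one of the few with both depleted lysates above both mock lysates, and its centred value rose by 0.71 (SE 0.101, limma adjusted p = 0.00738) at 57.5 to 78.9 TPM. ACM1, an inhibitor of the anaphase-promoting complex, had 0.835 and 0.826 in mock and 0.913 and 0.860 after depletion (centred change 0.81, adjusted p = 0.0385). VTH1, one of a pair of near-identical genes, had 0.273 and 0.321 in mock and 0.384 and 0.381 after depletion (centred change 0.69, adjusted p = 0.0189). LDB18, RNH1, MRPL24, SUS1, MFM1, YER034W and SLD7 rose by between 0.54 and 0.64. All 7 had their depleted values above their mock values, as in 1.17% of all mRNAs. The rule had picked them for the size of their rises and for the same sign in both same-numbered pairs of lysates.

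Some transcripts of the translation machinery fell within their length classes. Of 13 elongation and termination factors 4 fell after centring, beside 5.93% of all mRNAs: EFT1 and EFT2, the near-identical genes of eEF2, YEF3, the fungal elongation factor eEF3, and SUP35, the release factor eRF3. YEF3 had a pSup of 0.758 and 0.778 in mock and of 0.617 and 0.624 after depletion. Of the 18 other initiation factors 4 fell, namely PRT1, GCD11, NIP1 and GCN3, which encode subunits of eIF3, eIF2, eIF3 and eIF2B. PRT1 had 0.819 and 0.830 in mock and 0.699 and 0.693 after depletion (centred change -0.40, limma adjusted p = 0.0063). In both genes the depleted lysates were the low ones, without overlap, as in 80.7% of all mRNAs.

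In the remaining lists, glycolysis had 5 falls among 20 transcripts (CDC19, PFK1, PFK2, TDH3 and PGI1) and ribosome biogenesis had 16 falls, 4 rises and 83 that did not pass, beside 5.93% of all mRNAs that fell and 2.43% that rose. The 137 cytosolic ribosomal protein transcripts had 1 rise and 6 falls, shares below those of all mRNAs. The 182 measured Msn2/4 targets, a list of general stress genes, had 10 rises and 1 fall, and the 47 Hsf1 targets, chaperones and their partners, had 5 rises and 1 fall. None of 12 transcripts for protein folding in the endoplasmic reticulum passed. No list held a transcript that passed the test on uncentred log-odds, and their medians ran from -0.20 to -0.51 beside -0.33 for all mRNAs.

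Centred changes followed the ribosome occupancy of each mRNA in unstressed cells, a measure from other cells and libraries. The decile with the lowest occupancy had a median centred change of 0.109 (0.112 and 0.109 from the same-numbered lysates), with 15 rises and 2 falls. In the ninth decile the median was -0.0636 with 13 rises and 72 falls among 490 mRNAs. In the highest it was -0.0451 with 8 rises and 58 falls among 490. Median occupancy was 0.928 for elongation and termination factors, 0.910 for other initiation factors and 0.913 for amino acid biosynthesis, within the ninth decile. Whether these lists fell more than mRNAs of like occupancy was not tested. Across 4897 mRNAs the centred change and occupancy correlated at rho = -0.283. The centred level itself correlated with occupancy at rho = 0.629 in mock and 0.494 after depletion. Abundance varied along with it: across deciles of mock TPM the median centred change went from 0.110 in the lowest to -0.0721 in the ninth and -0.0391 in the highest, and its part in the relation with occupancy was not tested.

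**Figure D3:**
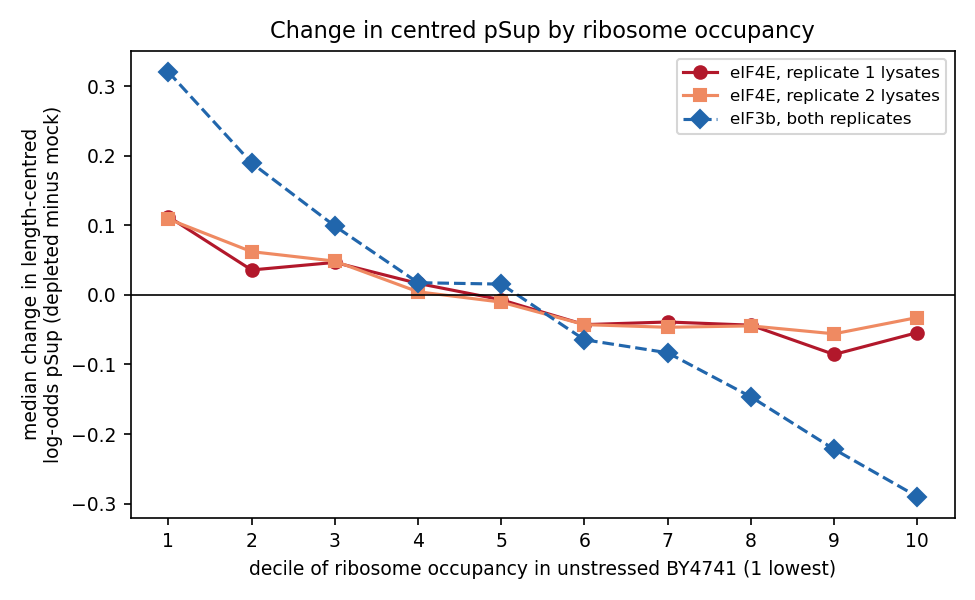
Median change in length-centred log-odds pSup (depleted minus mock) in each decile of ribosome occupancy in unstressed BY4741, from 1 (lowest) to 10 (highest). The eIF4E lines, 1 for each replicate number, go from 0.112 and 0.109 in the first decile to below 0 from the fifth on, and the dashed eIF3b line goes from 0.320 to -0.290.

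Total RNA, sequenced before the spin, changed widely. Of 5583 mRNAs tested with edgeR, 1709 rose (30.6%) and 1621 fell (29%), and 266 rose and 191 fell by 2-fold or more. These calls are relative to the typical mRNA (edgeR's TMM scaling). Log2 ratios of mean TPM lay above them by a median of 0.17, and 15 of the 1621 falls had a higher mean TPM after depletion. Counts of mRNA per count of NanoLuc, the RNA spiked into each sample, were 16909 and 13890 in the mock Total libraries and 9540 and 8132 in the depleted ones, 1.74 times lower after depletion. NanoLuc itself had 393 to 686 counts. On the NanoLuc scale all changes shifted by -0.51 (log2), and 233 mRNAs rose (4.17%) and 2810 fell (50.3%). All 233 were among the 1709 rises, and all 1621 falls stayed falls. In these bulk lysates fewer cells and less mRNA per cell cannot be told apart. Log2 fold changes below are on the TMM scale unless NanoLuc is named.

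The 10 largest rises included ARG3, ARG1, ARG4 and ARG56, genes of arginine synthesis. ARG3 (YJL088W, chromosome X: 268799-269815), the ornithine carbamoyltransferase gene, was at 1.48 and 2.17 TPM in mock and at 69.5 and 76.3 TPM after depletion. ARG1 (YOL058W, chromosome XV: 219211-220473) was at 9.37 and 8.01 TPM in mock and at 168 and 198 TPM after depletion. For both the depleted lysates were far above the mock ones and close to each other. In TPM, 54.3% of all mRNAs had both depleted lysates above both mock ones. The folds were 35.7 for ARG3 (log2 5.16, SE 0.208, edgeR adjusted p = 1.53e-09) and 18.7 for ARG1 (log2 4.23, SE 0.125, adjusted p = 1.26e-10).

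Other steps of the same pathway rose less. ARG4, argininosuccinate lyase, and ARG56, which encodes a pair of early enzymes on 1 precursor protein, rose 6.01-fold and 6.12-fold. CPA1, the small subunit of carbamoyl phosphate synthetase, whose mRNA carries a regulatory upstream reading frame, was at 61.05 and 59.6 TPM in mock and at 158 and 165 TPM after depletion (log2 1.25). ORT1, the mitochondrial ornithine carrier, and ARG8, acetylornithine aminotransferase, rose by 1.05 and 0.76 on the log2 scale. On the NanoLuc scale ARG8 did not pass (0.24), and ARG3, ARG1, ARG4, ARG56, CPA1 and ORT1 did.

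Among all 43 amino acid biosynthesis transcripts 27 rose, 11 fell and 5 did not pass, beside 30.6% of all mRNAs that rose and 29% that fell. The median of the 43 was 0.33 on the TMM scale and -0.18 on the NanoLuc scale. On the NanoLuc scale 12 rose and 15 fell, beside 4.17% and 50.3% of all mRNAs. HIS5, histidinol-phosphate aminotransferase, was at 31.7 and 30.96 TPM in mock and at 98.8 and 107.8 TPM after depletion (log2 1.55, edgeR adjusted p = 2.1e-08). ARO3, LEU4, LYS1 and HOM3, early or pathway-specific enzymes of aromatic amino acid, leucine, lysine and threonine synthesis, rose by 1.25, 1.15, 1.14 and 1.05 on the log2 scale. The largest falls in the list were ILV5, BAT1 and THR4, at -0.67, -0.55 and -0.49. GCN4, which encodes the transcription factor that activates these genes and is translated through upstream reading frames, was at 739 and 734 TPM in mock and at 1120.1 and 1151 TPM after depletion (log2 0.46 on the TMM scale, adjusted p = 5.6e-05, and -0.04 on the NanoLuc scale). Its depleted lysates were the higher ones in TPM, as in 54.3% of all mRNAs.

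Other rises named by the rule were BOP2, PRM1, ARO5, HSP12 and PIR3. PRM1, a membrane protein of mating-cell fusion, was at 4.52 and 3.10 TPM in mock and at 54.1 and 60.4 TPM after depletion (log2 3.73). HSP12, a small stress-induced membrane protein, was at 37.3 and 17.5 TPM in mock and at 211 and 181 TPM after depletion (log2 2.69, SE 0.340, adjusted p = 1.68e-05). BOP2 rose by 4.29, ARO5 by 3.20 and PIR3, a cell wall protein, by 2.62 on the log2 scale. None of the 5 had overlapping groups, against a background in TPM of 54.3% of mRNAs with both depleted lysates above both mock and 27.3% with both below. HAC1 was at 815 and 826 TPM in mock and at 1584 and 1642 TPM after depletion (log2 0.82, SE 0.0669, adjusted p = 3.7e-07, and 0.31 on the NanoLuc scale with an adjusted p of 0.162).

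The rule's 10 largest falls included SAM1, MET17 and MET6. SAM1, an S-adenosylmethionine synthetase, was at 376 and 378 TPM in mock and at 90.2 and 80.4 TPM after depletion. MET17, which makes homocysteine, was at 133 and 123.2 TPM in mock and at 36.8 and 26.1 TPM after depletion. MET6, methionine synthase, was at 153 and 142 TPM in mock and at 42.7 and 30.99 TPM after depletion. Depleted lysates were far below the mock ones in these 3, with log2 changes of -2.31, -2.21 and -2.18 (edgeR adjusted p = 7.19e-09, 1.46e-07 and 6.3e-08). The rule had picked them for the size of their falls. In TPM, 27.3% of all mRNAs had both depleted lysates below both mock ones.

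SAM2, the second S-adenosylmethionine synthetase gene, MXR1, a methionine sulfoxide reductase, and MMP1, the S-methylmethionine permease, fell, with log2 changes of -2.27, -2.44 and -2.25. SAM1 and SAM2 are similar in sequence, so the split of their reads is less certain than their sum. URA1, dihydroorotate dehydrogenase, OLE1, the fatty acid desaturase, and IZH4, a membrane protein linked to zinc homeostasis, fell, at -2.20, -2.16 and -2.42. YRF1-6 completed the 10 falls at 5.12 TPM or less, and its reads cannot be placed firmly among the copies of its family.

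**Figure D4:**
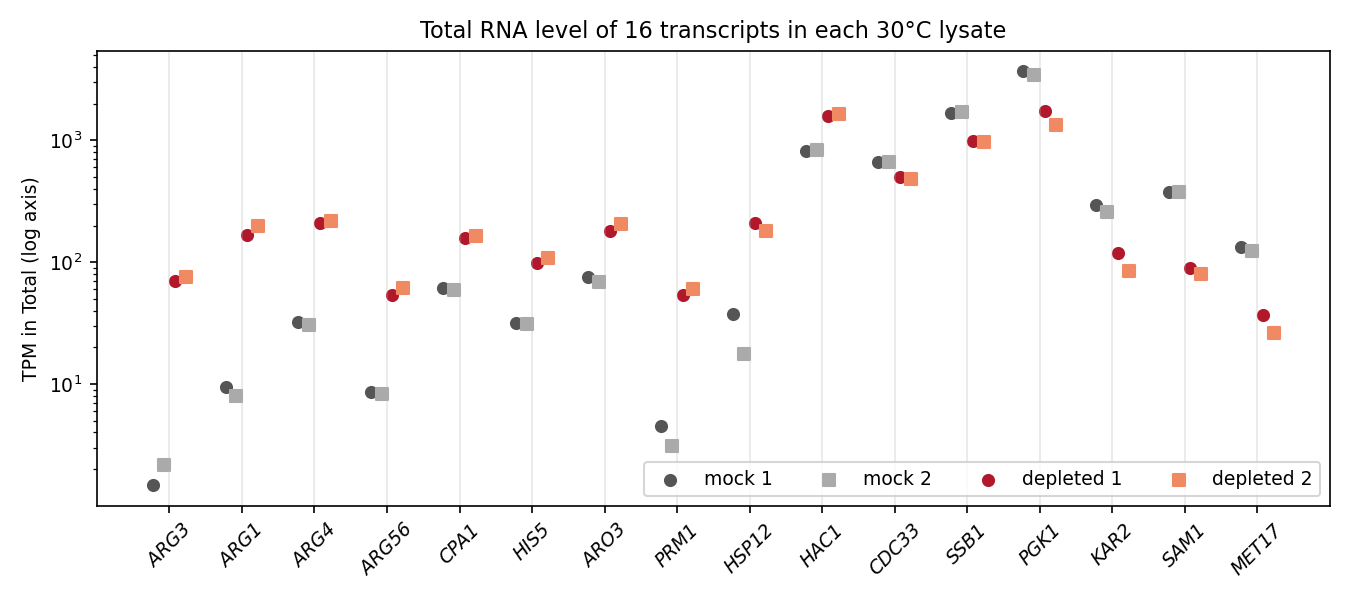
Level in Total RNA (TPM, log axis) of 16 transcripts in each of the 4 lysates at 30°C, 1 point a lysate. ARG3 stands at 1.48 to 2.17 TPM in mock and 69.5 to 76.3 TPM after depletion, the other transcripts from ARG1 to HAC1 are also higher after depletion in TPM, and those from CDC33 to MET17 are lower.

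Most listed transcripts of the translation machinery fell. All 10 eIF4F genes and regulators fell, beside 29% of all mRNAs, with a median of -0.63 (-1.13 on the NanoLuc scale). CDC33 was at 670.2 and 663 TPM in mock and at 498 and 479 TPM after depletion (log2 -0.60, SE 0.0546, edgeR adjusted p = 9.25e-07). CAF20, which encodes an eIF4E-binding repressor, was at 335 and 324 TPM in mock and at 133 and 137 TPM after depletion, the largest fall of the group (log2 -1.43). EAP1, the other such repressor, had the smallest (-0.22, adjusted p = 0.00487).

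Of the 18 other initiation factors 12 fell and 2 rose, beside 29% and 30.6% of all mRNAs, with a median of -0.48. The rises were PRT1, the eIF3b gene, at 122.4 and 129.9 TPM in mock and 178 and 192 TPM after depletion (log2 0.38), and GCD1 of eIF2B (0.15). On the NanoLuc scale neither passed, at -0.13 and -0.36. All 13 elongation and termination factors fell, with a median of -0.82 (-1.33 on the NanoLuc scale), from SUP45 at -0.35 to HYP2, the eIF5A gene, at -1.45. Of 137 cytosolic ribosomal protein transcripts 6 rose, 17 did not pass and the others fell (median -0.44), many of them in near-identical pairs. Of the ribosome biogenesis transcripts 28 fell, 16 rose and 59 did not pass (median -0.08), shares close to or below those of all mRNAs.

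Glycolytic and fermentation transcripts, among the most abundant in the cell, fell in 14 of 21 cases, beside 29% of all mRNAs. TDH3, glyceraldehyde-3-phosphate dehydrogenase, was at 20499 and 19762 TPM in mock and at 10126 and 8180.0 TPM after depletion (log2 -1.30). PGK1 was at 3681 and 3412 TPM in mock and at 1740.5 and 1328 TPM after depletion (log2 -1.38, SE 0.152, edgeR adjusted p = 5.02e-06). HXK2, the main glucose-phase hexokinase, fell by 1.88. The 2 rises were PYK2 and PDC6, minor isozymes, at 0.91 and 1.64 on the log2 scale, and neither passed on the NanoLuc scale. SSB1, from the chaperones, was at 1682 and 1700.2 TPM in mock and at 989 and 962 TPM after depletion (log2 -0.97).

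All 10 histone transcripts fell, beside 29% of all mRNAs, with a median of -1.22 (-1.72 on the NanoLuc scale). HHF2, for histone H4, was at 1079.9 and 977 TPM in mock and at 426 and 384 TPM after depletion (log2 -1.47). Histone genes come in near-identical pairs, so single members are less certain than the group. Of 9 cyclins 7 fell, against the same share of all mRNAs: CLB6, CLN1 and CLN2, which act around the G1 to S transition, at -2.08, -1.46 and -1.36, and CLB5, CLB3, CLB2 and CLN3 at between -0.24 and -0.56. CLB1 and CLB4 were at 0.00 and 0.01.

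In the endoplasmic reticulum list 9 of 12 transcripts fell and none rose, beside 29% and 30.6% of all mRNAs. KAR2, the luminal Hsp70, was at 293 and 260.0 TPM in mock and at 119 and 84.7 TPM after depletion (log2 -1.61). PDI1, protein disulfide isomerase, and EUG1, its homolog, fell, at -1.15 and -1.04. Depleted lysates were the low ones for all 3, as in 27.3% of all mRNAs by TPM. The HAC1 transcript was higher in TPM in both depleted lysates, as in 54.3% of all mRNAs. On the NanoLuc scale HAC1 did not pass (0.31, edgeR adjusted p = 0.162). Of 33 proteasome transcripts 31 fell (median -0.53), and of 67 mitochondrial ribosomal protein transcripts 43 fell (median -0.34), against the same 29%.

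Trehalose and glycogen genes, which make and break down reserve carbohydrates, were higher on the TMM scale. Of 16 trehalose and glycogen genes 11 rose and 0 fell, beside 30.6% and 29% of all mRNAs, with a median of 0.61 (0.10 on the NanoLuc scale, where 2 rose and 2 fell). NTH1, neutral trehalase, was at 52.5 and 46.7 TPM in mock and at 111.3 and 107.7 TPM after depletion (log2 0.97), and GPH1, glycogen phosphorylase, rose by 0.96. Of 194 Msn2/4 targets 26 fell, 67 did not pass and the others rose, with a median of 0.35 on the TMM scale and of -0.15 on the NanoLuc scale. Of 47 Hsf1 targets 10 rose and 21 fell (median -0.21). Against the same shares of all mRNAs, 14 of 34 respiratory chain and ATP synthase transcripts rose and 3 fell (median 0.13, and -0.38 on the NanoLuc scale, where none rose and 12 fell). The NanoLuc counts of this list and of the trehalose and glycogen genes stand beside 4.17% of all mRNAs that rose and 50.3% that fell on that scale.

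Abundance changes also ran with ribosome occupancy and with length. The median log2 fold change was 0.34 in the lowest decile of occupancy and -0.46 in the highest, and -0.34 in the shortest decile of transcripts beside 0.04 in the longest. Across mRNAs, the change in abundance and the centred change in pSup correlated only weakly, at rho = 0.0999 (n = 4938), and the abundance changes of the same-numbered lysates at rho = 0.912.

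eIF3b depletion at 30°C, done with the same degron system in another strain (yJB042, PRT1-AID*) with its own 2 mock and 2 depleted lysates, is the nearest experiment. There the median pSup went from 0.822 and 0.784 to 0.642 and 0.567, a difference of -0.198 beside -0.0624 for eIF4E. On the log-odds scale the median changes were -0.97 and -0.33, and with eIF3b 4463 of 4927 mRNAs fell (90.6%) and 1 rose (0.0203%). The limma test of the difference found 1115 of 4927 mRNAs (22.6%) with a less negative change after eIF4E depletion and 1 (0.0203%) with a more negative one. That count rested on single lysates: it was 1 without eIF3b depleted replicate 2, 35 without eIF3b mock replicate 1, 45 without eIF4E mock replicate 1, between 98 and 236 without eIF4E depleted replicate 1 or 2 or eIF4E mock replicate 2, and 2011 without eIF3b depleted replicate 1. Strain and depleted factor differ together and cannot be told apart.

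After centring, 930 mRNAs rose and 1161 fell with eIF3b (18.9% and 23.6%). In the test of the difference, 431 mRNAs (8.75%) had a higher and 287 (5.83%) a lower change with eIF4E than with eIF3b. HAC1 rose by 0.36 within its length class after eIF4E depletion and by 1.19 after eIF3b depletion, a difference of -0.83 (SE 0.0805, limma adjusted p = 5.65e-05). SSB1 fell by 0.49 and by 0.50, and the difference of 0.02 (SE 0.0950) did not pass. TIF3, the eIF4B gene, fell by 0.85 with eIF3b and had a change of -0.16 with eIF4E that did not pass, a difference of 0.69 (adjusted p = 0.0012). ARG1 fell by 0.55 with eIF4E and had a change of 0.08 with eIF3b that did not pass, a difference of -0.63 (adjusted p = 0.00171).

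In Total RNA, 2596 of 5815 mRNAs rose (44.6%) and 2198 fell (37.8%) with eIF3b. In the test of the difference, 1841 of 5815 mRNAs (31.7%) had a higher and 1668 (28.7%) a lower log2 change with eIF4E than with eIF3b. The medians of amino acid biosynthesis had opposite signs, at 0.33 with eIF4E and -0.58 with eIF3b, and 32 of its 43 transcripts had a higher and 2 a lower change with eIF4E. ARG1 was at 10.5 and 13.04 TPM in the eIF3b mock lysates and at 41.3 and 32.9 TPM after eIF3b depletion, and its rise was larger with eIF4E by 3.20 (edgeR adjusted p = 4.69e-10). ARG3 rose in both, by 5.16 and 5.10, and the difference of 0.05 did not pass. On the NanoLuc scale the eIF4E median of this list was -0.18.

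Histone transcripts had medians of -1.22 with eIF4E and -0.44 with eIF3b, and 8 of 10 had a lower and 2 a higher change with eIF4E. Of all 5815 mRNAs, 28.7% had a lower and 31.7% a higher change with eIF4E. Cytosolic ribosomal protein transcripts fell further with eIF3b (medians -1.28 and -0.44), and 130 of 137 had a higher change with eIF4E. Glycolytic transcripts had medians of -1.003 with eIF4E and -2.47 with eIF3b. PGK1 was at 3433 and 3527 TPM in the eIF3b mock lysates and at 309 and 406 TPM after eIF3b depletion, and its fall was smaller with eIF4E by 2.55 (adjusted p = 2.35e-08). For the 195 Msn2/4 targets tested with eIF3b, with medians of 0.35 and 0.84, 23 had a higher and 92 a lower change with eIF4E.

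**Figure D5:**
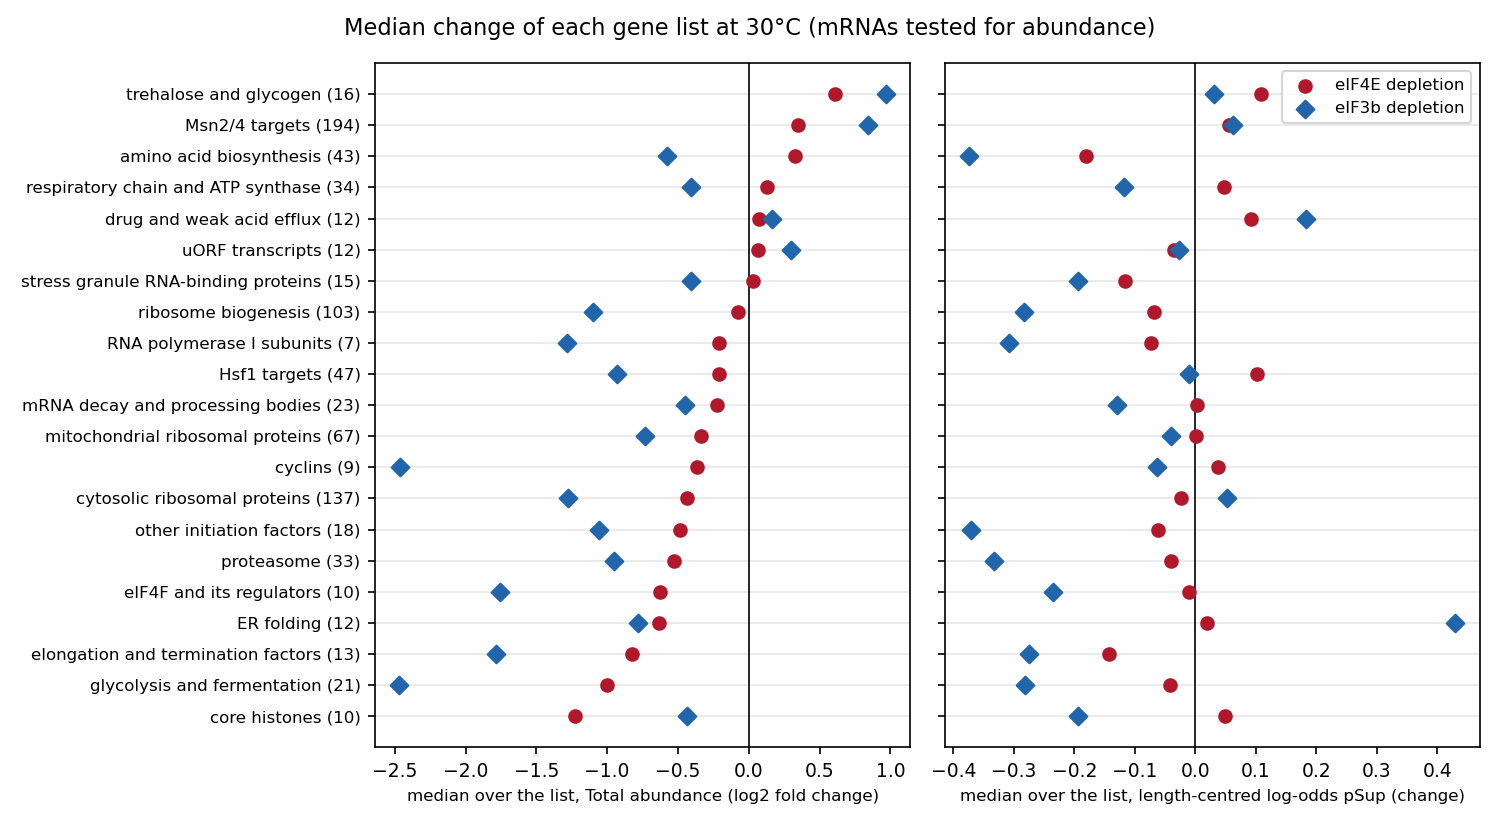
Median change of each gene list at 30°C after eIF4E depletion (circles) and eIF3b depletion (diamonds), with the number of mRNAs tested for abundance after each name. Left, log2 fold change in Total RNA on the TMM scale, where amino acid biosynthesis lies at 0.33 and -0.58 (-0.18 for eIF4E on the NanoLuc scale). Right, change in length-centred log-odds pSup, where it has -0.18 for eIF4E and the eIF4E points lie nearer to 0 than most eIF3b points.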

How the data were processed

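The authors removed duplicates by UMI (UMI-tools 1.1.4), trimmed reads (Trim Galore 0.6.10) and quantified them with kallisto 0.48.0 on R64 transcripts after depletion of ribosomal RNA. The deposited values are kallisto estimated counts and TPM per transcript and library. The deposited pSup is a fraction that the authors computed from mixing ratios of Sup and Pellet, themselves fitted to Total by a Bayesian model. The deposited ribosome occupancy is a fraction per transcript from polysome sequencing scaled by added fission yeast RNA. Here kallisto counts were rounded to whole numbers and tested with edgeR 4.0.16 (quasi-likelihood, TMM, filterByExpr) on the 12 Total libraries of the eIF4E strain, with standard errors from the log2 change and its F statistic. The logit of pSup, and that logit less the running mean over mRNAs within 0.02 of the range of log length, were tested with limma 3.58.1 (trend) on mRNAs with at least 20 counts over Sup and Pellet in every lysate and a deposited length. Benjamini-Hochberg adjusted p-values below 0.05, over all mRNAs tested, were called. R64 RefSeq names matched 5996 of 6002 nuclear protein-coding genes, and 5137 had a length.

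Differences from eIF3b were interaction contrasts over 24 lysates, and calls for eIF3b alone came from that same fit. Library sizes of 5354343 to 7049900 counts in Total set the precision. Members and gene lists were chosen with earlier results of these data known. Named transcripts are the eIF4F list, those the study names for this experiment, and, per measure, at most the 10 largest rises and 10 falls. These rises and falls came from called mRNAs with the same sign in both same-numbered pairs of lysates. They also had at least 100 counts in both lysates of a group. Scripts were tested on simulated data. DESeq2 1.42.0, other scalings and filters, the 30°C lysates alone, a replicate block and omission of each lysate were tried as alternatives. Sequences are not shown here, and a planned motif search was not run. A transcript that the rule names is not reported here.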

Additional observations from a re-analysis of the deposited data

Results flagged for a closer look

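These results were picked out because the change after eIF4E depletion differed from that after eIF3b depletion by the interaction test. Values are the eIF4E change minus the eIF3b change, and no explanation was tested. In counts, 1841 mRNAs had a higher and 1668 a lower log2 abundance change with eIF4E, 1115 had a higher and 1 a lower log-odds change, and 431 had a higher and 287 a lower centred change.

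Of the translation genes, differences in log2 abundance were 1.29 for CDC33, 0.78 for TIF4631, 0.27 for TIF4632, 1.53 for TIF1, 1.22 for TIF2, 1.31 for TIF3, 1.29 for PAB1 and 1.16 for DED1, all toward a smaller fall with eIF4E. The reads of TIF1 and TIF2 are shared between near-identical copies. On log-odds pSup the differences were 0.91 for TIF4632, 1.36 for TIF3, 1.21 for EAP1 and 0.97 for DED1, and after centring they were 0.38, 0.69, 0.67 and 0.45 for the same 4 genes.

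Among the other named transcripts, abundance differed by -0.57 for HAC1, 1.19 for SSB1, 2.55 for PGK1 and 0.72 for BEM2. Of those that rose with eIF4E, the difference was 3.20 for ARG1, 2.08 for ARO5, 0.78 for ARG4 and -2.93 for HSP12, whose rise was larger with eIF3b. Of those that fell, it was -1.45 for MXR1, -1.66 for SAM2, -1.46 for MET17, -1.22 for MET6, 1.08 for URA1 and 1.57 for OLE1. MMP1 had a difference of -3.76, with a fall of 2.25 after eIF4E depletion and a rise of 1.50 after eIF3b depletion. YRF1-6 had -5.74, at low and poorly placed counts. After centring, pSup differed by -0.83 for HAC1, 0.77 for ACM1, 0.60 for YER034W and -0.63 for ARG1.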

How the results depend on the processing

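On the NanoLuc scale 233 mRNAs rose and 2810 fell in abundance, 1 rose and 4056 fell in log-odds pSup, and the median pSup difference was -0.0738. With at least 100 counts, log-odds falls came to 0, and lower differences from eIF3b to 0. From the 30°C lysates alone, log-odds pSup gave 12 rises and 2748 falls and the centred value 0 calls, and differences from eIF3b gave 2618 and 3 on log-odds and 285 and 180 after centring. Same-numbered deviations correlated at over 0.1 for 10 of 15 group pairs in Total (median 0.130), 1 of 15 in log-odds pSup and 1 of 15 after centring, so not for every pair, and the numbers were not taken to pair the lysates. With the replicate block, log-odds falls came to 4 and lower log-odds differences to 2, and it moved no other count by over 1.5 times. DESeq2 called 1272 rises and 1349 falls in abundance.

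Leaving out 1 lysate at a time gave 1364 to 1470 abundance rises, 1361 to 1475 falls, 0 to 1 log-odds rises, 0 to 2 falls, 42 to 142 centred calls of 413 and a median pSup difference of -0.0726 to -0.0522. For differences from eIF3b it gave 1718 to 1775 and 1406 to 1563 (abundance), 1 to 2011 and 0 to 1 (log-odds), and 258 to 363 and 130 to 216 (centred). Centred differences fell more than 1.5 times without eIF4E depleted replicate 1 or 2, eIF4E mock replicate 1 or 2, eIF3b depleted replicate 2, or eIF3b mock replicate 2. No named transcript went from a called change to a called change of the opposite sign. Signs of changes that did not pass could switch, as for the log-odds change of HAC1, 0.03 and -0.15 on the NanoLuc scale. With 2 lysates a group, changes in pSup of scarce mRNAs are limited by counts, and NanoLuc by 344 to 1389 counts a library.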

Other observations

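Small noncoding RNA took a larger share of the depleted Total and Sup libraries, and a smaller share of the depleted Pellet libraries. Nuclear snoRNA, snRNA and other noncoding RNA made up 5.24% and 5.62% of counts in the mock Total libraries and 7.78% and 8.67% in the depleted ones, and its mean share of Sup was 5.07% ± 0.0284 in mock and 9.52% ± 1.02 after depletion (SD, n = 2). In Pellet the mean shares were 4.03% ± 0.477 and 3.22% ± 0.169. Transcripts of the mitochondrial genome went from 0.254% and 0.273% of Total to 0.365% and 0.409%.

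Mating-type genes differed among themselves. SAG1, the α-agglutinin gene, was at 514 and 384 TPM in mock and at 985 and 1026 TPM after depletion (log2 0.99, edgeR adjusted p = 8.9e-05), and STE3, the receptor of MATα cells, rose by 0.59, while the α-factor gene MF(ALPHA)2 had a log2 change of 0.04 (adjusted p = 0.781). STE2, the receptor of MATa cells, was at 1.82 and 2.22 TPM in mock and at 8.63 and 8.73 TPM after depletion (log2 1.94, adjusted p = 4.23e-06). Of the other MATa genes, STE6 rose by 0.61, MFA1 (0.63, adjusted p = 0.458) did not pass at 4 to 12 counts, and BAR1 (0.52, adjusted p = 0.230) did not pass at 1.17 TPM or below.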
